A study of Mus musculus with 6 samples.

Results

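The genes described here encode the proteasome, the protease complex that degrades ubiquitin-tagged proteins, and the activators that dock on it. They were chosen by symbol: Psma, Psmb, Psmc, Psmd or Psme followed by a number, without the immunoproteasome genes Psmb8, Psmb9 and Psmb10 and without pseudogenes. This gave 40 of the 57186 genes in the counts: 16 of the core (8 Psma and 8 Psmb), 20 of the cap (6 Psmc and 14 Psmd) and 4 activators (Psme). Psmc3ip, a meiotic recombination gene, and Psme2b, a retrocopy of Psme2, carry letters after the number and were left out.

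RNA was sequenced from 3 libraries of tumours grown from Y-KO cells and 3 of tumours grown from Y-Scr cells. The Y-KO cells are MB49, a mouse bladder carcinoma line of male origin, after CRISPR editing against the Y chromosome, and the Y-Scr cells are the same line after CRISPR with a scrambled control. Both were injected subcutaneously in C57Bl/6J mice. Tumours were collected at 500 mm3, and CD45-negative cells, those without the common leukocyte antigen, were sorted. All 6 libraries carry 1 batch label. The labels name neither the age nor the sex of the mice, do not say whether replicates are separate animals, and do not say whether the edited cells were 1 clone, so p-values here describe only how far the sequenced libraries varied, and that variation may be technical.

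The proteasome core is a barrel of outer alpha rings, which gate the entrance, and inner beta rings, in which Psmb5, Psmb6 and Psmb7 carry the cutting sites. The cap sits on the ends of the barrel: its Psmc ATPases unfold substrates and its Psmd subunits bind and remove ubiquitin. Psme activators replace the cap without using ATP or ubiquitin, and interferon-gamma is known to raise Psme1 and Psme2 together with Psmb8, Psmb9 and Psmb10, which take the places of the usual cutting subunits and favour peptides for MHC class I.

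Total counts ran from 42040955 to 52951031 per library. The Y-linked genes Kdm5d, Uty, Ddx3y and Eif2s3y summed to 20.4 to 47.3 CPM (counts relative to a library size scaled by the TMM method) in Y-KO and 296 to 344 CPM in Y-Scr, and 4 of 4 were lower in Y-KO, which checks the labels. Libraries of a group were not equally distant. The mean chi-square per gene, over genes with a mean of at least 1000 counts, was 13.3 between Y-KO replicates 1 and 2, against 189 and 190 between these and Y-KO replicate 3. It was 7.75 between Y-Scr replicates 2 and 3, against 32.6 and 43.1 between these and Y-Scr replicate 1, so n = 3 may overstate the independent samples. Over genes with a mean of 20 to 100 counts the distances were more alike. There the Y-KO value was 9.53 between replicates 1 and 2, against 11.5 and 12.4 to replicate 3. The Y-Scr value was 5.80 between replicates 2 and 3, against 6.18 and 6.40 to replicate 1. Leukocyte RNA was present despite the sort. All 13 pan-leukocyte markers were detected, none was at 0 in either group, and their summed level ran from 1473 to 3189 CPM in Y-KO and from 3743 to 3876 CPM in Y-Scr. Ptprc, which encodes CD45, stood at 293, 298 and 134 CPM in Y-KO and at 521, 577 and 602 CPM in Y-Scr. The summed level of 7 epithelial markers was 3276 to 3467 CPM in Y-KO and 2407 to 2735 CPM in Y-Scr. The single markers went both ways. In 4 of them every Y-KO library stood above every Y-Scr library, and in 3 every Y-KO library stood below.

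The promoters of 5 members are shown. Psme1 and Psme2, called higher in Y-KO, and Psme3, not called, stand for the activators, and the differences between these genes were not tested. Psmd9 and Psmb5 are examples of other called members whose windows held a motif match. The windows of Psmd4, Psmd2 and Psmc1, also called, held matches too and are not printed. The windows of Psma5, Psmb4, Psmc5, Psmd8 and Psmd13, called as well, held 0 matches, and Psmd7, also called, had no window. Each printed window runs from 250 bases before to 50 bases after a RefSeq transcript start (build GRCm38.p6, not the GRCm39 of the counts), 5′ to 3′ on the strand of the gene: Psme1 chr14:55578244-55578543 (+), Psme2 chr14:55591052-55591351 (-), Psme3 chr11:101315963-101316262 (+), Psmd9 chr5:123227940-123228239 (+) and Psmb5 chr14:54617946-54618245 (-). Capitals mark matches to the motifs searched on both strands: GAAA, 2 bases of any kind and GAAA again (interferon-stimulated response element type), TTCNNNGAA (gamma-activated site type), TGACNNNGC (antioxidant response element type) and CCAAT.
Psme1: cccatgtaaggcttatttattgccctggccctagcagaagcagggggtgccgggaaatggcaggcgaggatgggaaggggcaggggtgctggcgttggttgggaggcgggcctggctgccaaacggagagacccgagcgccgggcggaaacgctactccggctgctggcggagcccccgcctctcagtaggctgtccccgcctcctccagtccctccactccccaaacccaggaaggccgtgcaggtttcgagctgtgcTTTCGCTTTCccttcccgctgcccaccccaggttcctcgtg
Psme2: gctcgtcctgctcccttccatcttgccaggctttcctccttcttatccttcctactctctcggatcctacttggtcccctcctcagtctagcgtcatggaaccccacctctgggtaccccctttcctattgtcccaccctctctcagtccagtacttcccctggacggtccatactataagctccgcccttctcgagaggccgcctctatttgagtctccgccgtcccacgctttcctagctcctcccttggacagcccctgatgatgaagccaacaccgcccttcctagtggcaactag
Psme3: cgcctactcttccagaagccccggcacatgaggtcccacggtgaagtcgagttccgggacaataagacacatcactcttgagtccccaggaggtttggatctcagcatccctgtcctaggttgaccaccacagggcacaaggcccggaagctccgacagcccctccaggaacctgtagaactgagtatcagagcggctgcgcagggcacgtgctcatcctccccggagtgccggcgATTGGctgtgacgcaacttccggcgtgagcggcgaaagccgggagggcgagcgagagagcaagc
Psmd9: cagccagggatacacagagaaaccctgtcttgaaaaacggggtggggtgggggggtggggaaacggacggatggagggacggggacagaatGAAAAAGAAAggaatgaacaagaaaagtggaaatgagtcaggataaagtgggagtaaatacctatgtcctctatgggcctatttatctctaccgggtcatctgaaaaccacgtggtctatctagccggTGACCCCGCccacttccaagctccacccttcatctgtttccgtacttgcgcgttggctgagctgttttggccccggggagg
Psmb5: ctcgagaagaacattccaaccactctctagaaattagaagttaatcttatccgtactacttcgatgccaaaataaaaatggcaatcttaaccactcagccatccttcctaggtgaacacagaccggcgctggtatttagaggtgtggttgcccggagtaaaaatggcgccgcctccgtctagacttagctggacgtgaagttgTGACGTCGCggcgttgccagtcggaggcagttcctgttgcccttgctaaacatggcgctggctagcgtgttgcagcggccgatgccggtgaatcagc

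In the Psme1 window the interferon-type letters lay at bases 10 to 19 after the start, and in the Psmd9 window at bases -159 to -150, counting the first transcribed base as 1. Psmd9 also held the antioxidant-type letters at -31 to -23, and Psmb5 held them at -47 to -39. The Psme3 window held a CCAAT match only, and neither of the 2 Psme2 windows in the table held any of the 4 motifs. Of 40 members, 33 matched the promoter table, with 36 windows. The interferon-type letters were in 4 of these windows (11.1%; Psmb3, Psmd4, Psmd9 and Psme1) and in 3.44% of all 32851 windows of this length. The gamma-activated type was in 1 member window (Psmd2; 2.78%) against 8.30% of all, the antioxidant type in 6 (16.7%) against 12.4%, and CCAAT in 13 (36.1%) against 37.4%. No match of one motif overlapped a match of another in the member windows. These shares describe letters in a window and were not tested. The windows of Psmb8, Psmb9 and Psmb10, which are not members, held 0 interferon-type matches. Psmb8 held 1 gamma-activated match, Psmb9 held 1 CCAAT match and Psmb10 held 0 matches to the motifs searched.

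Of the 40 members, 38 passed the filter on low counts and 13 of them were higher in Y-KO at a Benjamini-Hochberg adjusted p below 0.05 over 17837 genes by edgeR's quasi-likelihood test. None was lower by edgeR (0 also at an unadjusted p under 0.05), DESeq2 or limma-voom. Among all genes tested, 7.82% were called higher and 8.27% lower. The differences were small. The log2 fold change (Y-KO minus Y-Scr) was positive in 36 of 38 members, its median was 0.28 against -0.03 over all genes, and it ran from -0.11 to 0.54. Regardless of sign, the median size was 0.28 in members and 0.31 over all genes. It exceeded 0.5 in 2 of 38 members and in 33.5% of all genes. The median SE was 0.09 for members and 0.19 for all genes, so a change of a given size was called more readily among members. The 95% interval lay within 2-fold in all 38 members and within 1.5-fold in 31. The Y-KO values stood above all Y-Scr values in 29 members (17.5% of all genes), below them in none (20.3% of all genes), and overlapped them in 9.

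The calls depended on which libraries were kept. EdgeR called 0 of the members without Y-Scr replicate 2, without Y-Scr replicate 3, or with each close pair of libraries summed into 1 sample. In these fits it called 5.55%, 5.57% and 2.55% of all genes. Without Y-KO replicate 1 it called 3 members higher, Psmc5, Psmd9 and Psme2 (3.86% of all genes). Without Y-KO replicate 2 it called 4, these and Psme1 (3.90% of all genes). Without Y-KO replicate 3 it called 31 higher (16.0% of all genes) and 1, Psmd10, lower (17.7% of all genes). That last fit kept only the close pair of Y-KO libraries and called 33.7% of all genes, against 16.1% with all libraries. With library size alone as the scaling, which moved the median of all genes to -0.17, 3 members were called higher (Psmc5, Psmd9 and Psme2; 4.09% of all genes), 33 of 38 were positive, and the median of the members was 0.13. The median of the members stood 0.30 above that of all genes under both scalings. A change of scaling moves every gene by nearly the same amount, so this equal gap is no check on the scaling.

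**Figure D1:**
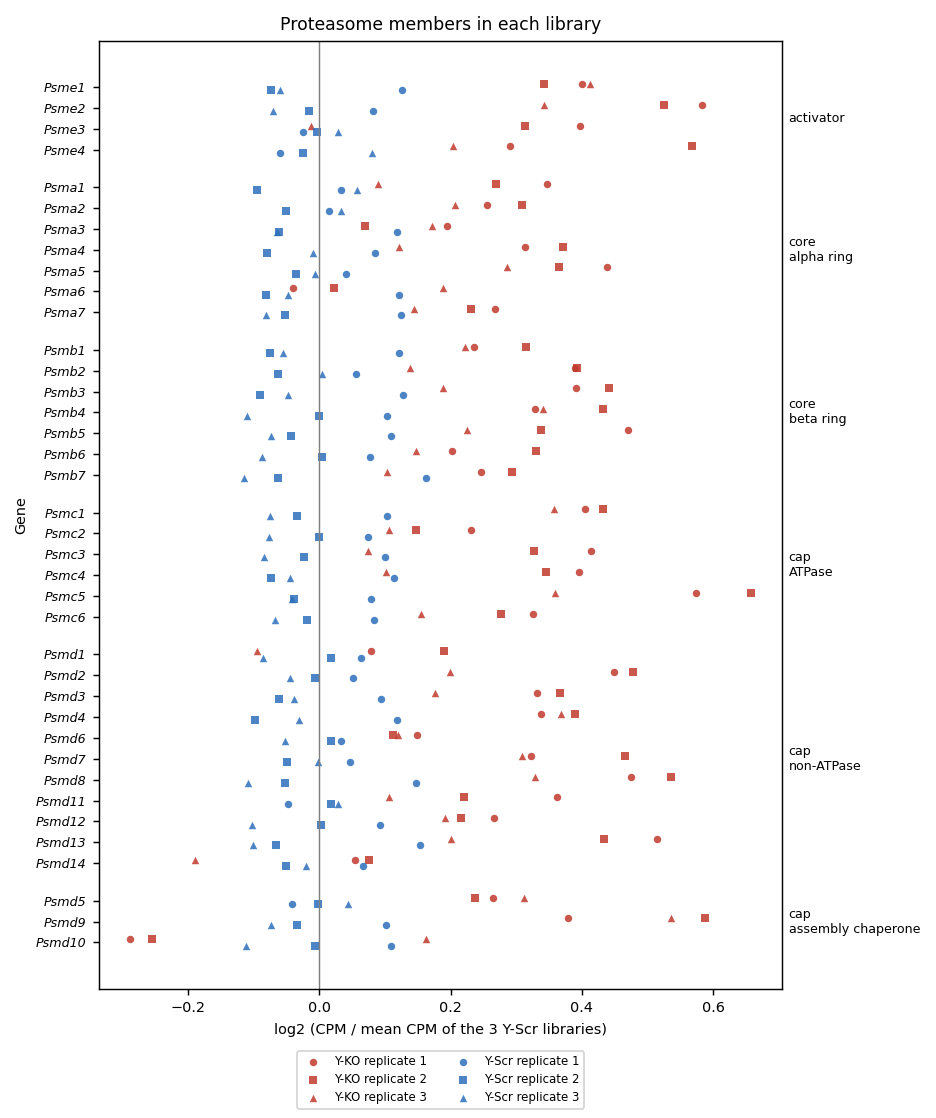
Each point is 1 library, placed at its log2 ratio of CPM to the mean of the Y-Scr libraries, for the 38 members that passed the filter (rows, grouped by class; Y-KO red, Y-Scr blue; shapes give the replicate). In 29 members every red point lies to the right of every blue point, and Y-KO replicate 3 (red triangle) is the lowest of the Y-KO libraries in 29.

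The activators showed the highest class median, 0.37, and 2 of 4 were called. Psme2 (chromosome 14, 55824898 to 55828570, GRCm39), the beta subunit of the interferon-induced activator, stood at 372, 358 and 315 CPM in Y-KO replicates 1, 2 and 3, against 263, 246 and 237 CPM in the Y-Scr replicates. Every Y-KO library was above every Y-Scr library, and Y-KO replicate 3 was the lowest of its group. Psme2 rose 1.40-fold (log2 fold change 0.49 ± 0.09 SE, adjusted p = 0.00833 by edgeR). Its partner Psme1, the alpha subunit (chromosome 14, 55815580 to 55818986), stood at 363, 349 and 366 CPM in Y-KO, against 300.1, 261 and 264 CPM in Y-Scr. Here Y-KO replicate 3 was the highest library. Psme1 rose 1.31-fold (log2 fold change 0.39 ± 0.08 SE, adjusted p = 0.0155 by edgeR). Leaving out 1 library moved the adjusted p of Psme2 between 5.52e-06 and 0.0542 and that of Psme1 between 0.000567 and 0.0985. Psme2b, a retrocopy of Psme2 that can share reads with it, averaged 23.4 ± 4.44 CPM over the Y-KO libraries, against 17.5 ± 0.773 CPM over the Y-Scr libraries (SD, n = 3 each), and was not called (edgeR adjusted p = 0.104).

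Psme3 (chromosome 11, 101207039 to 101214363), whose product is a nuclear activator, was at 146, 138 and 109.8 CPM in Y-KO, against 109, 110.5 and 113 CPM in Y-Scr. Y-KO replicate 3 lay inside the Y-Scr range while the other Y-KO libraries lay above it, and the gene was not called (log2 fold change 0.24 ± 0.11 SE, adjusted p = 0.183 by edgeR). Of the fits with 1 library left out, Psme3 was called higher only without Y-KO replicate 3 (log2 fold change 0.35, edgeR adjusted p = 0.000831). The fit without Y-KO replicate 3 kept only the close pair of Y-KO libraries and called 16.0% of all genes higher. Psme4 (chromosome 11, 30721726 to 30830361), encoding the largest activator and known for roles in the nucleus and in spermatogenesis, was at 72.2, 87.5 and 68.0 CPM in Y-KO and at 56.6, 58.0 and 62.4 CPM in Y-Scr. The groups did not overlap, but it missed the threshold (log2 fold change 0.36 ± 0.11 SE, adjusted p = 0.0609 by edgeR). Psme4 was called higher by DESeq2 (adjusted p = 0.0432). In edgeR, of the fits with 1 library left out, it was called only without Y-KO replicate 3 (log2 fold change 0.43, adjusted p = 0.00185). Per kilobase, the ratio of Psme2 to Psme3 within a library was 4.27, 4.34 and 4.80 in Y-KO, against 4.04, 3.72 and 3.50 in Y-Scr, without overlap. The ratio of Psme1 to Psme3 was 3.32, 3.38 and 4.45 in Y-KO, against 3.68, 3.16 and 3.12 in Y-Scr, and here the groups overlapped. The ratio of Psme1 to Psme2 was 0.779, 0.779 and 0.928 in Y-KO, against 0.911, 0.849 and 0.890 in Y-Scr, with Y-KO replicate 3 above and the other Y-KO libraries below the Y-Scr range.

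**Figure D2:**
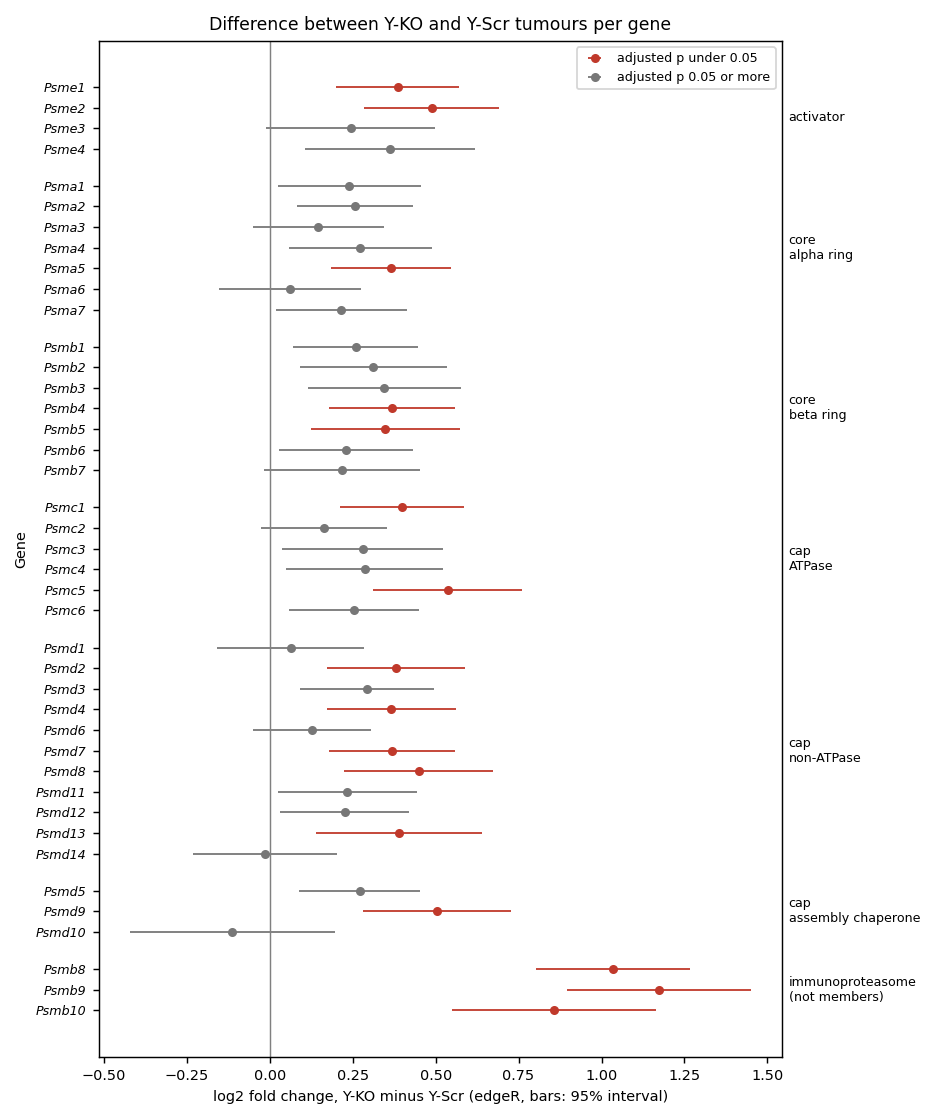
The log2 fold change (Y-KO minus Y-Scr) of each member with its 95% interval from the edgeR fit, grouped by class, with the immunoproteasome genes below; red marks an adjusted p under 0.05. The 13 called members lie between 0.35 and 0.54, and Psmb8, Psmb9 and Psmb10 lie between 0.86 and 1.17.

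In the core 3 of 14 tested members were called higher, and the class median was 0.26. In the alpha rings 1 of 7 was called. Psma5 (chromosome 3, 108164242 to 108187290) was at 167, 159 and 150.5 CPM in Y-KO, against 127, 120.5 and 123 CPM in Y-Scr, a rise of 1.29-fold (log2 fold change 0.36 ± 0.08 SE, adjusted p = 0.0176 by edgeR). The groups were well apart, since the lowest Y-KO library exceeded the highest Y-Scr library by more than the range within Y-Scr. Psma2, the next by p, was at 157, 163 and 152 CPM in Y-KO and at 133, 127 and 135 CPM in Y-Scr (log2 fold change 0.26 ± 0.08 SE, adjusted p = 0.0537 by edgeR). Psma6 had the smallest difference in the rings (log2 fold change 0.06, 95% interval -0.15 to 0.27), with 209, 218 and 244 CPM in Y-KO and 233, 203 and 207 CPM in Y-Scr. Y-KO replicate 3, low for most members, was the highest library for Psma6. The other alpha members, Psma1, Psma3, Psma4 and Psma7, had log2 fold changes from 0.15 (Psma3) to 0.27 (Psma4) and were not called. Psma8, a testis form of an alpha subunit, had 32 counts in Y-KO replicate 1 and 0 in the others, and 0, 12 and 6 counts in the Y-Scr replicates, and was not tested.

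In the beta rings 2 of 7 were called. Psmb4 (chromosome 3, 94791404 to 94794272), a subunit without a cutting site, was at 289.8, 312 and 292 CPM in Y-KO, against 248, 231 and 214 CPM in Y-Scr, and rose 1.29-fold (log2 fold change 0.37 ± 0.08 SE, adjusted p = 0.0201 by edgeR). Psmb5 (chromosome 14, 54851576 to 54855479), which carries the chymotrypsin-like site, was at 95.2, 86.9 and 80.3 CPM in Y-KO and at 74.1, 66.7 and 65.3 CPM in Y-Scr (log2 fold change 0.35 ± 0.10 SE, adjusted p = 0.0452 by edgeR). Both were separated between the groups, Psmb5 by a smaller gap. Psmb6, with the caspase-like site, was at 129, 141 and 124 CPM in Y-KO and at 118, 112.4 and 105.5 CPM in Y-Scr (log2 fold change 0.23, edgeR adjusted p = 0.118). Psmb7, with the trypsin-like site, was at 93.3, 96.4 and 84.5 CPM in Y-KO and at 88.1, 75.3 and 72.6 CPM in Y-Scr, with overlapping groups (log2 fold change 0.22, edgeR adjusted p = 0.196). Of the cutting subunits, then, 1 of 3 passed the test, and the fit did not test whether they differ from each other. Psmb1, Psmb2 and Psmb3 had log2 fold changes from 0.26 to 0.35 and adjusted p of 0.0687, 0.0622 and 0.0506 (edgeR). Psmb11, a thymus form, had 12 counts in Y-KO replicate 3 and 0 in the other 5 libraries; 0 counts over the Y-Scr group allow a level of up to 0.0196 CPM, for counting error only.

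The immunoproteasome genes, set beside their counterparts as a comparison outside the chosen members, had larger log2 fold changes. Psmb9 was at 157, 174 and 147 CPM in Y-KO, against 80.0, 72.0 and 60.1 CPM in Y-Scr (log2 fold change 1.17 ± 0.12 SE, adjusted p = 0.000644 by edgeR). Psmb8 was at 147, 156 and 134 CPM in Y-KO, against 78.4, 69.6 and 65.3 CPM in Y-Scr, a log2 fold change of 1.03. Psmb10 was at 251, 242 and 180.0 CPM in Y-KO, against 134, 113 and 125 CPM in Y-Scr, a log2 fold change of 0.86. All 3 rose, and unlike the members they stayed called when any 1 library was left out. With close pairs of libraries summed, Psmb8 and Psmb9 stayed called, while Psmb10 did not (log2 fold change 0.76, edgeR adjusted p = 0.103). Per kilobase of annotated exon, the ratio of Psmb9 to Psmb6 was 0.622, 0.632 and 0.606 in Y-KO and 0.346, 0.328 and 0.291 in Y-Scr. The ratio of Psmb8 to Psmb5 was 0.411, 0.478 and 0.443 in Y-KO and 0.281, 0.278 and 0.266 in Y-Scr. For Psmb10 to Psmb7 it was 5.40, 5.03 and 4.27 in Y-KO and 3.04, 3.00 and 3.47 in Y-Scr. These ratios do not depend on the scaling between libraries, and none of them overlapped between the groups. They were not tested.

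**Figure D3:**
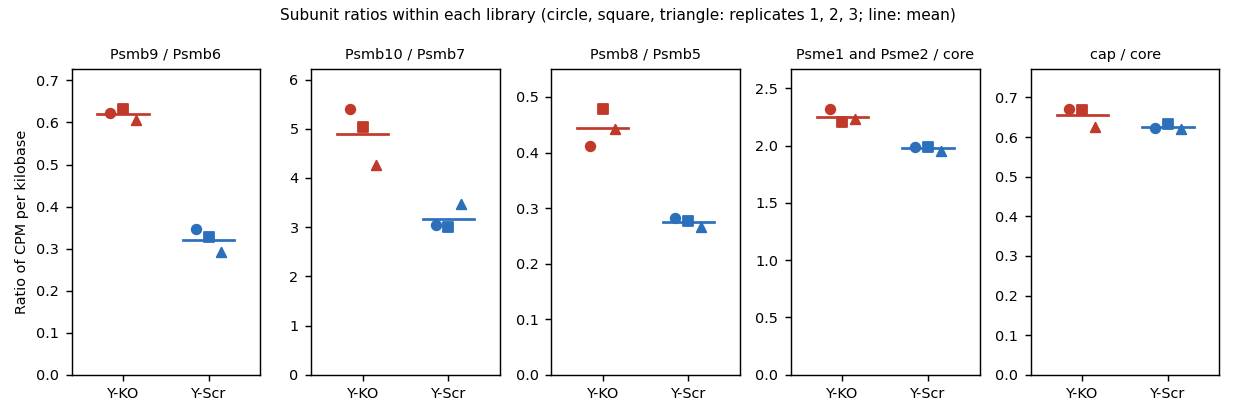
Ratios of CPM per kilobase within each library (y axis from 0; Y-KO left in red, Y-Scr right in blue; line at the mean of 3 libraries). The Psmb9 to Psmb6 ratio averages 0.620 in Y-KO and 0.321 in Y-Scr, while the cap to core ratio averages 0.655 in Y-KO and 0.625 in Y-Scr with overlapping libraries.

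In the cap 8 of 20 members were called higher, with a class median of 0.28. Among the ATPases 2 of 6 were called. Psmc5 (chromosome 11, 106146980 to 106153946) had the largest log2 fold change of all members, with 143, 151.5 and 123 CPM in Y-KO, against 101, 93.5 and 93.3 CPM in Y-Scr. The lowest Y-KO library was well above the highest Y-Scr library. Psmc5 rose 1.45-fold (log2 fold change 0.54 ± 0.10 SE, adjusted p = 0.00883 by edgeR). Psmc1 (chromosome 12, 100076413 to 100089664), an ATPase whose tail opens the gate of the core, was at 177, 180.2 and 171 CPM in Y-KO, against 144, 130.5 and 127 CPM in Y-Scr (log2 fold change 0.40 ± 0.08 SE, adjusted p = 0.014 by edgeR). Psmc2 differed least (log2 fold change 0.16, 95% interval -0.03 to 0.35; edgeR adjusted p = 0.229), although its Y-KO values of 123.5, 116.5 and 113 CPM all exceeded the Y-Scr values of 111, 105 and 99.7 CPM. Psmc3, Psmc4 and Psmc6 had log2 fold changes from 0.25 to 0.29 and were not called.

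Of the 11 structural non-ATPase subunits 5 were called. Psmd8, a subunit of the lid that covers the cap (chromosome 7, 28873613 to 28880126), was at 204, 213 and 184.5 CPM in Y-KO, against 163, 142 and 136 CPM in Y-Scr, and rose 1.36-fold (log2 fold change 0.45 ± 0.10 SE, adjusted p = 0.0178 by edgeR). The ubiquitin receptor gene Psmd4 was at 149, 154 and 152 CPM in Y-KO, against 128, 110.0 and 115 CPM in Y-Scr (log2 fold change 0.37, edgeR adjusted p = 0.0225). Psmd2, which encodes the scaffold that holds shuttle receptors, was the most abundant cap transcript before correction for length, with 376, 383 and 316 CPM in Y-KO and 285, 274 and 267 CPM in Y-Scr (log2 fold change 0.38, edgeR adjusted p = 0.0252). For these 3 genes no Y-KO library reached down to the Y-Scr range, and Psmd4 varied least within Y-KO. Psmd13, another lid subunit, was at 197.5, 187 and 159 CPM in Y-KO and at 154, 132 and 129 CPM in Y-Scr (log2 fold change 0.39, edgeR adjusted p = 0.0455).

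Psmd7 and Psmd14, which pair in the lid to form the ubiquitin-removing module, gave different calls. Psmd7, the inactive partner (chromosome 8, 108307013 to 108315096), was at 139, 153 and 137 CPM in Y-KO, against 114.5, 107 and 111 CPM in Y-Scr, and was called (log2 fold change 0.37 ± 0.08 SE, adjusted p = 0.0198 by edgeR). Psmd14, the deubiquitinase itself (chromosome 2, 61542038 to 61630720), was at 128, 130.3 and 108.5 CPM in Y-KO and at 129.6, 119 and 122 CPM in Y-Scr (log2 fold change -0.01, 95% interval -0.23 to 0.20; edgeR adjusted p = 0.935). Its groups overlapped, with Y-KO replicate 3 the lowest of all 6 libraries. The difference between these genes was not tested. Psmd1, the other large scaffold, also overlapped between the groups (log2 fold change 0.06, 95% interval -0.16 to 0.28). Psmd3, Psmd6, Psmd11 and Psmd12 had log2 fold changes from 0.13 to 0.29, and none was called.

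The chaperones that assemble the ATPase ring gave 1 call among 3 genes. Psmd9 (chromosome 5, 123307476 to 123388194) was at 58.3, 67.4 and 65.0 CPM in Y-KO, against 48.1, 43.8 and 42.6 CPM in Y-Scr, and rose 1.42-fold (log2 fold change 0.50 ± 0.10 SE, adjusted p = 0.011 by edgeR). Psmd5 was at 79.6, 78.1 and 82.2 CPM in Y-KO and at 64.4, 66.1 and 68.2 CPM in Y-Scr (log2 fold change 0.27 ± 0.08 SE, adjusted p = 0.0519 by edgeR). Psmd10, also called gankyrin and the only member on chromosome X (139849178 to 139857477), was at 47.3, 48.4 and 64.6 CPM in Y-KO and at 62.3, 57.5 and 53.5 CPM in Y-Scr. Its Y-KO replicates 1 and 2 lay below all Y-Scr libraries and Y-KO replicate 3 above them. No difference was called with all libraries (log2 fold change -0.11, 95% interval -0.42 to 0.20). Without Y-KO replicate 3 it was called lower (log2 fold change -0.27, edgeR adjusted p = 0.0308). That fit kept only the close pair of Y-KO libraries and called 17.7% of all genes lower.

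Levels of different genes were compared per kilobase of annotated exon. The length merges all annotated exons of a gene and can exceed that of the transcripts present, so differences between genes depend partly on annotation. It was 1234 bases for Psma6, 3421 for Psmb7 and 7248 for Psmd9. Before division by length, Psma6 averaged 224 CPM and Psmb7 91.4 CPM in Y-KO. Psma6 was the highest core member, at 181 CPM per kilobase in Y-KO and 174 in Y-Scr, and Psmb7 the lowest, at 26.7 in Y-KO and 23.0 in Y-Scr, a spread of 6.78-fold in Y-KO and 7.56-fold in Y-Scr. Among cap members Psmd9 was lowest, at 8.77 CPM per kilobase in Y-KO and 6.18 in Y-Scr. The highest was Psmc5 in Y-KO, at 99.9 CPM per kilobase, and Psmc1 in Y-Scr, at 69.1, where Psmc5 was at 68.9. Of the activators in Y-KO, Psme2 was at 198 CPM per kilobase, Psme1 at 163, Psme3 at 44.5 and Psme4 at 9.05. In Y-Scr the order was the same, with Psme2 at 141 CPM per kilobase, Psme1 at 125, Psme3 at 37.6 and Psme4 at 7.04. The mean of Psme1 and Psme2 over the mean of the core members, both per kilobase, was 2.32, 2.21 and 2.23 in Y-KO and 1.99, 1.99 and 1.96 in Y-Scr, so the groups did not overlap. The mean of the structural cap members over that of the core was 0.671, 0.669 and 0.625 in Y-KO and 0.622, 0.633 and 0.621 in Y-Scr, with Y-KO replicate 3 inside the Y-Scr range. These class ratios are descriptions and were not tested.

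**Figure D4:**
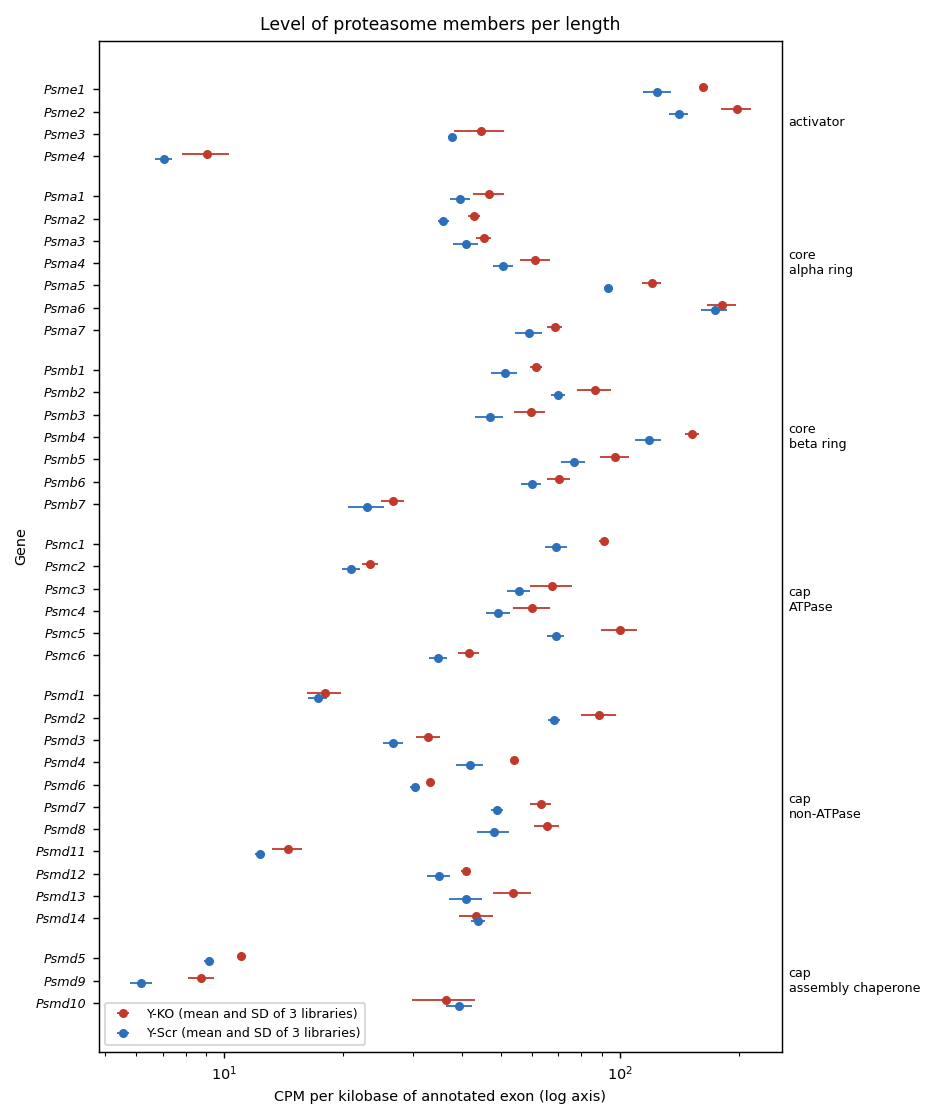
Mean CPM per kilobase of annotated exon (log axis) with the SD over 3 libraries, for each tested member in Y-KO (red, upper point) and Y-Scr (blue, lower point). Levels run from 8.77 (Psmd9) to 198 (Psme2) in Y-KO and from 6.18 (Psmd9) to 174 (Psma6) in Y-Scr.

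Summed over all 40 members, the level was 6235, 6266 and 5742 CPM in Y-KO replicates 1, 2 and 3, against 5267, 4825 and 4794 CPM in the Y-Scr replicates. Y-KO replicate 3 was the lowest Y-KO library in 29 of 38 tested members, and the median log2 ratio to the Y-Scr mean was 0.33 in Y-KO replicate 1, 0.33 in replicate 2 and 0.19 in replicate 3. That library also had the lowest pan-leukocyte sum of the 6. The pan-leukocyte sum was 3109, 3189 and 1473 CPM in Y-KO, against 3876, 3743 and 3819 CPM in Y-Scr, and 5 of 13 markers were called lower. The sum of 12 macrophage markers was 2715, 2709 and 1312 CPM in Y-KO, against 1665, 1542 and 1505 CPM in Y-Scr, with 6 called higher and 1 lower. Y-KO replicate 3 was thus below the Y-Scr libraries where the other Y-KO libraries were above them. The sum of 14 T and NK cell markers was 276, 284 and 159 CPM in Y-KO, against 957, 883 and 882 CPM in Y-Scr (12 lower), and that of 8 neutrophil markers was 770.2, 748 and 419 CPM in Y-KO, against 1729, 1558 and 1543 CPM in Y-Scr (6 lower). The sum of 11 fibroblast markers was 205, 211 and 671 CPM in Y-KO, against 1099, 1047 and 1059 CPM in Y-Scr (4 lower), so that here Y-KO replicate 3 was nearest to Y-Scr. Of 7 epithelial markers 4 were higher and 1 lower, and of 6 tested endothelial markers none was called, with 2 at an unadjusted p under 0.05 (edgeR). None of these markers was at 0 in either group. Their part in the proteasome differences was not tested, and in bulk RNA fewer cells of a type and less RNA per cell cannot be told apart. With the pan-leukocyte mean as a covariate 30 members were higher and 1, Psmd10, was lower, where 16.2% of all genes were called higher and 15.3% lower. That mean, in log2 CPM, was 7.32, 7.35 and 6.31 in Y-KO and 7.72, 7.64 and 7.64 in Y-Scr. It differed between the groups and set Y-KO replicate 3 apart, so this fit cannot separate leukocyte content from group or from that library. Leaving out Y-KO replicate 3, without the covariate, gave 31 members higher and Psmd10 lower (16.0% and 17.7% of all genes).

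**Figure D5:**
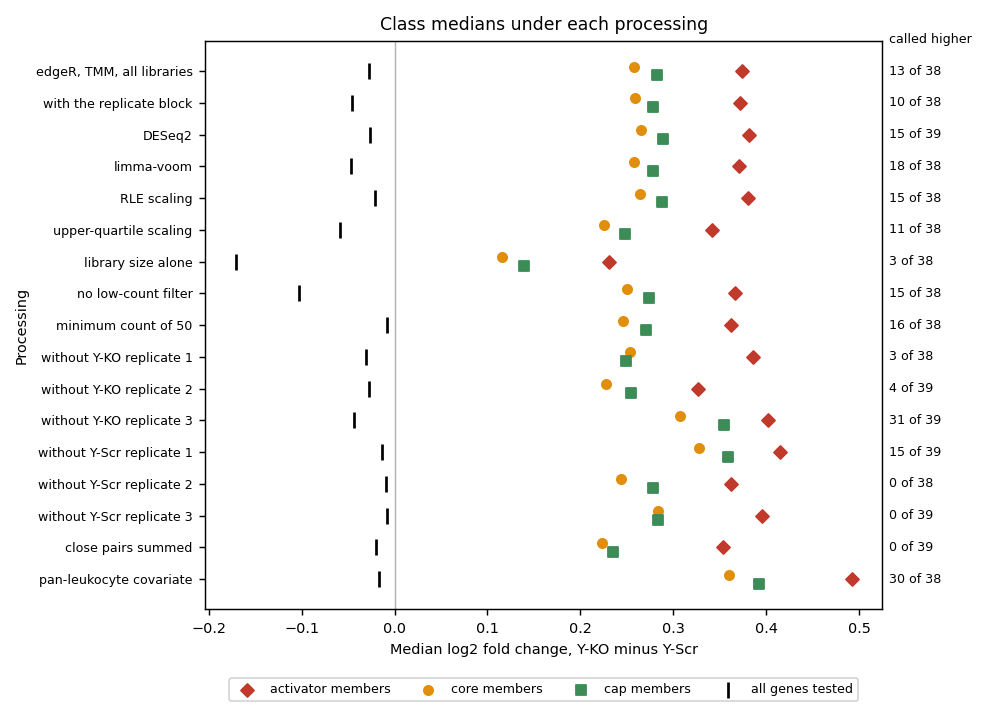
Median log2 fold change (Y-KO minus Y-Scr) of activator, core and cap members and of all genes tested (black bars) under each processing, with the number of members called higher at the right. The class medians lie above 0 and above the median of all genes throughout, at 0.12 to 0.49, while the count of members called higher runs from 0 to 31.

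Genes that work with the proteasome were taken as lists. Of the core assembly chaperones and the proteasome inhibitor, 1 of 6 was higher and none lower (median log2 fold change 0.25), the called one being the assembly chaperone gene Psmg3 (log2 fold change 0.50 ± 0.13 SE, adjusted p = 0.0374 by edgeR). Of 13 receptors, shuttle factors and deubiquitinases of the proteasome, 3 were higher and none lower (median 0.17). These were the shuttle receptor gene Rad23b, at 317, 333 and 337 CPM in Y-KO and 253, 254 and 247 CPM in Y-Scr (1.31-fold, edgeR adjusted p = 0.00835), the thioredoxin-like gene Txnl1 (1.29-fold) and the deubiquitinase gene Uchl5 (1.30-fold). Of 6 ubiquitin and ubiquitin-activating enzyme genes, 2 were higher and none lower (median 0.07). The polyubiquitin gene Ubb was at 1221, 1244 and 1245 CPM in Y-KO, against 973, 878 and 847 CPM in Y-Scr (1.38-fold, edgeR adjusted p = 0.00388), and was called without any 1 library but not with close pairs summed (log2 fold change 0.44, edgeR adjusted p = 0.136). Rps27a, which encodes a fusion of ubiquitin with a ribosomal protein, rose 1.25-fold and lost its call without Y-KO replicate 1 or 2 or Y-Scr replicate 2 or 3.

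Nfe2l1 encodes a transcription factor known to raise proteasome genes when proteasome activity falls. It was at 332, 318 and 396 CPM in Y-KO and at 290.5, 281 and 289.8 CPM in Y-Scr, without overlap, and missed the threshold (log2 fold change 0.28 ± 0.09 SE, adjusted p = 0.0804 by edgeR). It was listed with Nfe2l2, which encodes its antioxidant-response relative, with the small Maf partner genes Maff, Mafg and Mafk, with Keap1, a repressor of the Nfe2l2 protein, and with 5 genes that process the Nfe2l1 protein (Ddi2, Ngly1, Vcp, Syvn1 and Sel1l). Of these 11 genes, 2 were higher and none lower (median 0.15): Vcp, which extracts proteins from the endoplasmic reticulum membrane, 1.34-fold (edgeR adjusted p = 0.0106), and the ubiquitin ligase gene Syvn1, 1.28-fold (edgeR adjusted p = 0.0256). Nfe2l2 was not called (log2 fold change -0.03 ± 0.08 SE). Nfe2l1 and Nfe2l2 were named after their values were seen. Of 16 genes of interferon-gamma signalling and its targets, 10 were higher and 2 lower (median 0.59). The 4 with the smallest p were the MHC class I gene H2-K1 (1.95-fold), the peptide transporter gene Tap1 (2.13-fold), the light chain gene B2m (1.61-fold) and H2-D1 (1.70-fold), all further from the Y-Scr level than any proteasome member here. The lower ones, named after their values were seen, were the receptor gene Ifngr1 (log2 fold change -0.68 ± 0.16 SE) and the kinase gene Jak1 (log2 fold change -0.70 ± 0.08 SE). Of the called genes in these lists, Psmg3, Rad23b, Txnl1, Uchl5, Vcp, Syvn1 and Ifngr1 lost their call without Y-Scr replicate 2 or 3. Psmg3, Txnl1, Uchl5, Syvn1 and Ifngr1 also lost it without Y-KO replicate 1 or 2. Psmg3, Uchl5, Syvn1 and Ifngr1 lost it without Y-Scr replicate 1 too. In contrast, H2-K1, Tap1, B2m, H2-D1 and Jak1 were called without any 1 library.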

How the data were processed

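Per the labels, libraries came from poly-A RNA of sorted CD45-negative tumour cells and kept strand. The authors deposited unnormalised read counts for each gene and library, with the gene length. Per the file headers, the authors ran featureCounts 1.5.3 on Ensembl 112 (GRCm39) with default options, under which strand is ignored and reads of several places or genes are dropped. Overlapping or similar genes are therefore uncertain: exons of 8 of the 40 members shared 4.50% to 15.3% of their bases with another gene, among them Psmd5 (15.3%), Psmb5 (12.1%), Psmb7 (11.8%) and Psmd13 (10.1%). Of the comparison genes, Psmb8 shared 14.7% of its exon bases with another gene, and Psmb9 shared 5.8% with Tap1. Per the submitters' processing notes, Trimmomatic 0.39 and STAR 2.5.2b were used.

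Symbols were matched by gene ID (90.7% of IDs). Y-KO was compared with Y-Scr in edgeR 4.0.16 (R 4.3.3; filterByExpr at 10 counts and 15 in total, TMM, group alone), with adjustment over all 17837 genes tested. The SE was taken from the F statistic, and CPM use TMM-adjusted library sizes. Depth was 42040955 to 52951031 counts per library. The median SE, which includes the spread between libraries, was 0.09 for members and 0.19 for all genes. Also run were DESeq2 1.42.0, limma-voom (limma 3.58.1), a replicate block, other scalings and filters, leaving out libraries, summed close pairs and a leukocyte covariate. The edgeR step was tested on simulated independent libraries with planted changes larger than that of any member. That test therefore does not cover changes of this size or close pairs of libraries. The members, lists and alternatives were chosen with earlier results of these data known. Names follow a rule: called members, activators, untested members, extremes and smallest p of each class, the cutting subunits and their counterparts, and up to 4 called genes of each related list; other members are summarised.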

Additional observations from a re-analysis of the deposited data

How the results depend on the processing

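Under 16 alternatives each class median stayed above 0. With library size alone the medians of core, cap and activator members were 0.12, 0.14 and 0.23 and 3 members were called higher. With the pan-leukocyte covariate the medians were 0.36, 0.39 and 0.49, with 30 called higher (16.2% of all genes) and 1 lower (15.3%). With close pairs summed 0 were called higher or lower. Leaving out 1 library gave 0 to 31 higher and 0 to 1 lower, with medians of 0.23 to 0.33 (core), 0.25 to 0.36 (cap) and 0.33 to 0.42 (activators). The cause was not tested; summed pairs and left-out libraries also leave fewer samples. Replicate numbers did not pair the libraries: correlations of same-numbered deviations were -0.0084, 0.0049 and -0.014, and none of the 3 Y-KO libraries correlated best with its own number. With the replicate block 10 members were called higher (5.30% of all genes), all among the 13, with 2066 genes called in all. Psma6 changed sign with library size alone (-0.082), with the covariate (-0.062) and without Y-KO replicate 3, its values without 1 library running from -0.010 to 0.15. Psmd14 changed sign with the covariate (0.15), without Y-KO replicate 3 and without Y-Scr replicate 1, its values without 1 library running from -0.063 to 0.063. Neither was called in any of these. They were not the only members to change sign: 5 members were negative with library size alone, against 2 with TMM scaling. Psmd1 was negative without Y-KO replicate 2 (-0.007) and was not called there. Members called higher, with the share of all genes, were 15 (7.72%) by DESeq2, 18 (8.55%) by limma-voom, 15 (8.08%) with RLE and 11 (6.73%) with upper-quartile scaling, 15 (5.24%) without the low-count filter and 16 (10.1%) at a minimum count of 50. All 13 were among those called by DESeq2, limma-voom and RLE scaling. Psma8 and Psmb11 did not pass the low-count filter with all libraries; 39 members entered the tests under DESeq2, with close pairs summed and without Y-KO replicate 2 or 3 or Y-Scr replicate 1 or 3.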
